A study of Mus musculus with 12 samples.

Results

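The MidK2 course is a set of 4 RNA-seq libraries from mouse embryonic fibroblasts (MEF) carrying the reprogramming vector SeVdp(fKOSMaB) and kept in 30 nM Shield1, a small molecule that protects proteins fused to a destabilising domain. The libraries were taken at days 18, 22, 29 and 36, and each was set against MEF2, a day 0 fibroblast library with neither vector nor agent. These 5 libraries, of 12 in the series, were chosen by their labels, and their tables list variants found in X-linked transcripts relative to the mm10 mouse genome. No other allele, transgene or agent is labelled in any of the 5, and the labels do not name the strains, say how many animals or cultures were used, or mention feeder cells. Each day is 1 library, so every test below compares the reads of one library with those of MEF2, and intervals and p-values cover counting error only.

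For each single-base variant covered by at least 20 reads in both tables of a pair, the reads that did not show the variant were taken as reference reads. Their share of all reads over the sites of a gene is called the reference share. A total of 198 genes could be tested on at least 1 day and 173 on all 4 days, of 399 genes with such a site in any library of the series. The pairs held 1308, 1429, 1323 and 1442 shared sites in 189, 187, 181 and 192 tested genes at days 18, 22, 29 and 36. A gene was called when Fisher's exact test, adjusted by the Benjamini-Hochberg method over all genes of the pair, gave a p under 0.05 and the reference share differed by at least 20 percentage points.

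In female mammals one X chromosome of each cell is silenced, a state kept by the noncoding RNA Xist, by histone marks and by DNA methylation, while a minority of genes escape. Differentiated cells such as fibroblasts keep the silent state through division. Cells that reach a pluripotent state by reprogramming are known to reactivate the silent X, gene by gene. A heterozygous base in an X-linked transcript shows which chromosome the RNA came from.

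In MEF2 nearly all reads at the shared sites of most genes showed the variant: the median gene had a reference share between 1.13% and 1.27% in the 4 pairs, and 17 to 21 of the tested genes had 20% or more. Whether both alleles differ at each site was not established, and 17, 10, 9 and 21 tested genes at days 18, 22, 29 and 36 had no reference read in either library. The MidK2 libraries had a median reference share of 4.21% at day 18, 11.8% at day 22, 9.69% at day 29 and 2.43% at day 36. Called genes with a higher share than in MEF2 numbered 3 (1.59% of tested genes) at day 18, 18 (9.63%) at day 22, 18 (9.94%) at day 29 and 20 (10.4%) at day 36. A lower share was called for 1 gene (0.529%) at day 18 and for no gene at the other days; at any size, with adjusted Fisher exact p under 0.05, 2 (1.06%), 1 (0.535%), 1 (0.552%) and 3 (1.56%) genes were lower. All 4 pairs share the MEF2 library.

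The counts at days 22, 29 and 36 were close, but the uncalled genes were not alike. The median gene lay above MEF2 by 1.77 points at day 18, 7.95 points at day 22, 6.24 points at day 29 and 0.605 points at day 36. Differences of 5 to 20 points were found for 35 genes (18.5%), 109 genes (58.3%), 81 genes (44.8%) and 20 genes (10.4%) on the same days. At day 36, 146 of 192 genes (76%) were within 5 points of MEF2, while the gene at the ninetieth percentile was 20.4 points above it. Much higher shares were thus found in few genes at each of days 22, 29 and 36. Beside these, the day 22 and day 29 libraries had moderately higher shares in many genes, which the day 36 library did not.

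As a yardstick, the other fibroblast library, MEF1, was set against MEF2 in the same way. None of 174 genes was called, the median difference was 1.70 points, the ninetieth percentile 5.08 points and the largest 14.3 points. At any size, with an adjusted Fisher exact p under 0.05, 53 (28%), 126 (67.4%), 98 (54.1%) and 44 (22.9%) genes were higher than MEF2 in MidK2 at days 18, 22, 29 and 36, against 52 genes (29.9%) in MEF1. In MEF1, 1 gene (0.575%) was lower. Differences of 5 to 20 points, by contrast, were found for 18 genes (10.3%) in MEF1, and 87.4% of genes lay within 5 points of MEF2. The shares of genes that passed the test at any size at days 18 and 36 were thus no higher than between the fibroblast libraries, while more genes lay over 5 points from MEF2 than in MEF1. The MEF1 table was made with stricter limits on listed variants than the MidK2 and MEF2 tables.

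**Figure D1:**
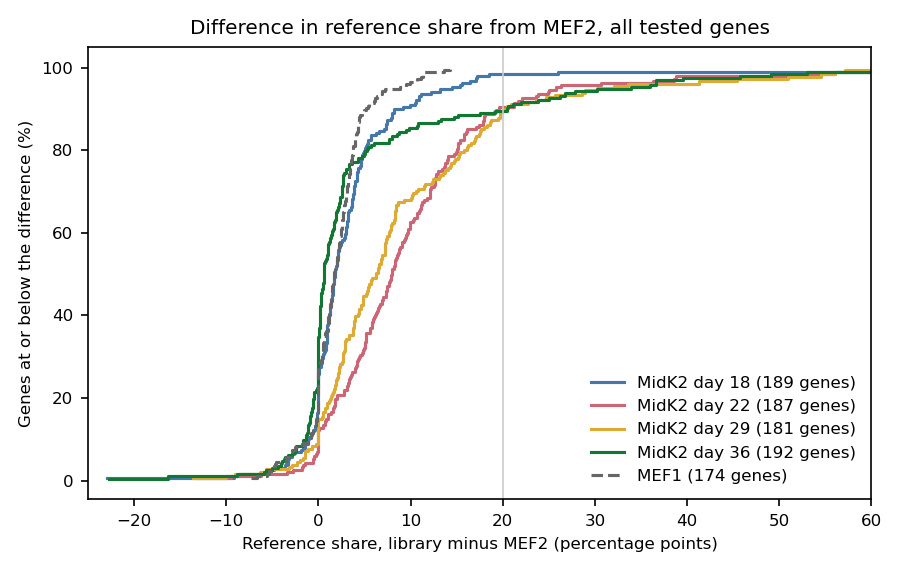
Cumulative share of tested genes (%, vertical) against the difference in reference share from MEF2 (percentage points, horizontal) for the 4 MidK2 libraries and for MEF1 (dashed); the grey vertical line marks 20 points. The day 22 and day 29 curves lie to the right of the MEF1 curve over most of their length, while the day 36 curve lies left of it for most genes and right of it above about 80% of genes.

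The called genes were unevenly placed along the chromosome. In the first 30 Mb, 1 of 35, 6 of 35 (17.1%), 11 of 34 (32.4%) and 14 of 37 genes (37.8%) were called higher at days 18, 22, 29 and 36. Over the rest of the chromosome the counts were 2 of 154 genes, 12 of 152 (7.89%), 7 of 147 (4.76%) and 6 of 155 (3.87%). The median difference in the first 30 Mb was 3.73, 11.1, 16.2 and 9.81 points at the 4 days, against 1.54, 7.17, 4.82 and 0.257 points elsewhere. At day 36 the median gene outside the first 30 Mb was within 1 percentage point of MEF2.

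**Figure D2:**
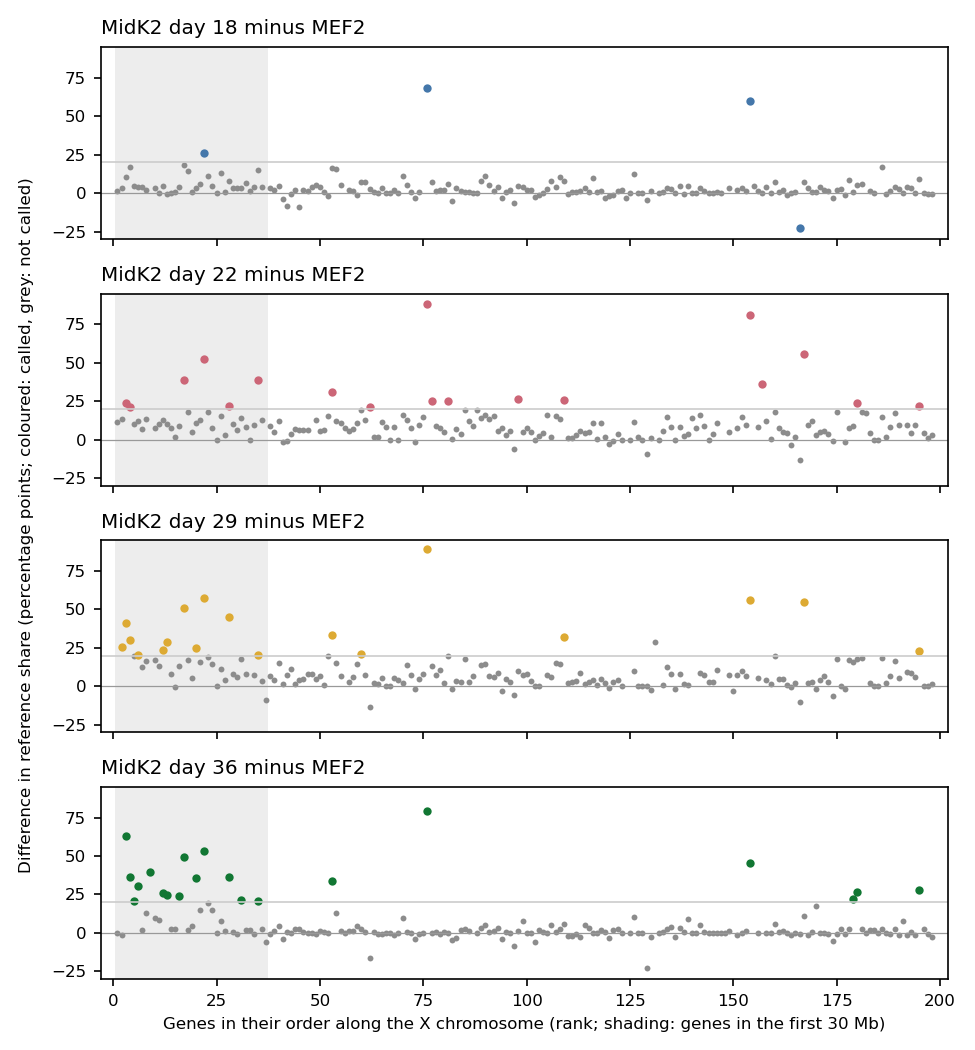
Difference in reference share between each MidK2 library and MEF2 (percentage points, vertical) for tested genes in their order along the X chromosome (rank, horizontal); coloured points are called genes, grey points are not called, shading marks genes in the first 30 Mb and the grey line 20 points. At day 36, 14 of the 20 called genes lie in the shaded part and most other points lie near 0.

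Over the 4 days 30 genes were called, 29 of them only higher and 1, Tmem29, lower. Higher calls on all 4 days were made for Bgn, 1810030O07Rik and Tceal3. Another 7 were called on days 22, 29 and 36 (Dynlt3, Fundc1, Gpkow, Plp2, Timp1, Tmsb4x and Zdhhc9), 4 on days 29 and 36 (Bcor, Hdac6, Tfe3 and Wdr13), 1 on days 22 and 36 (Acot9) and 5 on day 36 without days 22 and 29 (Ftsj1, Praf2, Sat1, Slc35a2 and Uba1). The remaining 9 were called at day 22 or 29 and not at day 36: Clcn5, Cxx1b, Gpc4, Maged2, Mpp1, Msn, Renbp and Slc6a8, and Rnf128, which had no shared site at days 29 and 36. A gene called on one day and not on another is not shown to differ between those days.

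**Figure D3:**
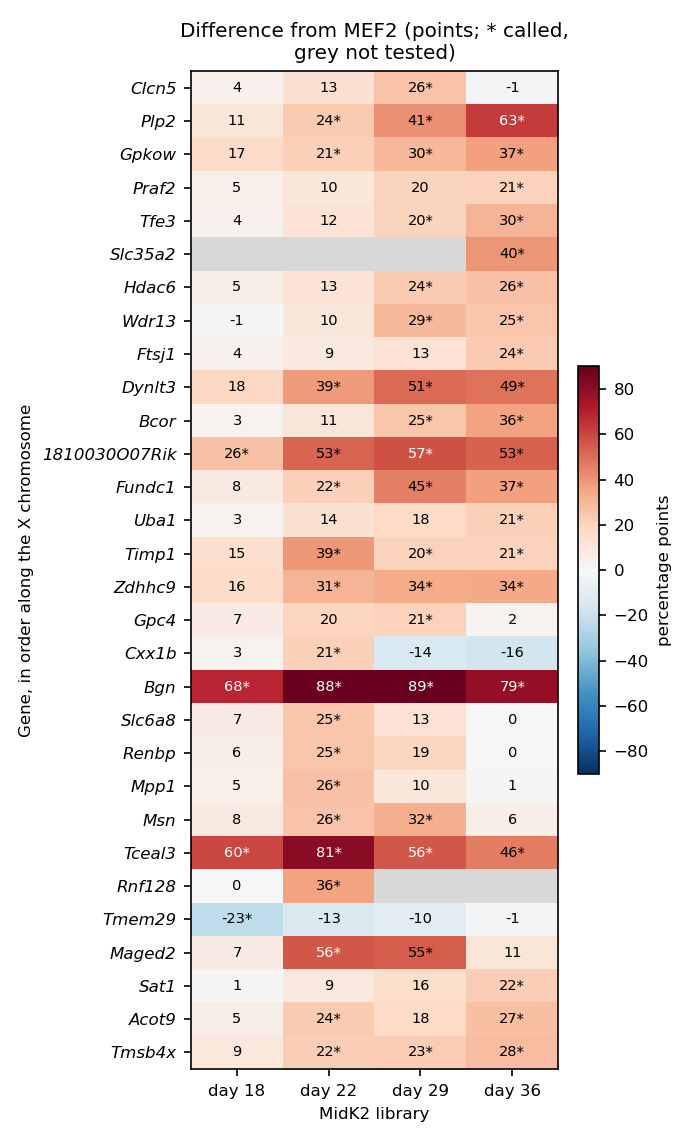
Difference in reference share from MEF2 (percentage points, written in each cell and coloured) for the 30 called genes, in their order along the X chromosome (vertical), at the 4 days (horizontal); an asterisk marks a call and grey a gene not tested. Genes at the top, in the first 30 Mb, mostly have their largest values at days 29 and 36, and several genes below them have values near 0 at day 36.

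Among the called genes near the start of the chromosome were a transcription factor, a deacetylase and a corepressor, each with its highest share at day 36. Tfe3 (chrX:7762560-7775202, + strand) encodes a basic helix-loop-helix transcription factor that restrains the exit from pluripotency in mouse embryonic stem cells. Its reference share over 22 or 23 sites was 7.57% at day 18, 15.4% at day 22, 23.4% at day 29 and 33.6% at day 36, against 3.36% to 3.39% in MEF2. All 4 libraries lay above MEF2, and the difference at day 36 was 30.3 points (95% interval 28.3 to 32.0). One Tfe3 site was mostly reference in every library, 89.6% to 93.5% in MidK2 and 77.8% in MEF2, while the median site stood at 4.45%, 12%, 20.5% and 31.5% over the 4 days. The call at day 29, at 20.1 points, was lost with MEF1 in place of MEF2 (18.0 points), with all variant types (17.9), with sites kept as strata (19.4) and with sites at least 50% variant in MEF1 (19.9).

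Hdac6 (chrX:7930120-7947889, − strand) encodes a cytoplasmic deacetylase of tubulin. Its share was 5.56%, 13.2%, 24.2% and 27.1% over 18 to 22 sites at days 18, 22, 29 and 36, against 0.564% to 0.857% in MEF2. At day 36 every one of its 22 sites was above MEF2, with site values of 19.0% to 38.7%. Bcor, the gene of a corepressor that works with BCL6 and in a Polycomb complex, had 3 coding sites at 3.21%, 11.1%, 24.7% and 35.9%, against 0 of 70 reads in MEF2. Its coverage was 446%, 526%, 404% and 696% of that in MEF2, beside a median of 129%, 136%, 124% and 145% over all tested genes.

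The ubiquitin-activating enzyme gene Uba1 (chrX:20658326-20683179, + strand), the first step of ubiquitin conjugation, had 4.44%, 15.4%, 19.0% and 22.5% over 15 to 19 sites, against 1.29% to 1.38% in MEF2. It passed 20 points only at day 36, at 21.2 points (95% interval 19.9 to 22.5), and stood at 17.8 points there with MEF1 in place of MEF2. Sat1, which encodes the rate-limiting enzyme of polyamine breakdown and lies near the far end of the chromosome, had 2.68%, 10.7%, 17.7% and 23.9% over 8 sites, against 1.89% in MEF2. Its day 36 difference of 22.0 points became 18.9 points with MEF1 and 17.2 points with 1 site per gene. Both genes were above MEF2 in all 4 libraries, although the Sat1 difference at day 18 (0.785 points, 95% interval −0.396 to 1.91) included 0.

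For 4 of the genes high at day 36, 1 coding base at which these differences were read is shown. Each is the best-covered coding site of its gene among those listed in all 5 libraries. Whether both alleles differ at these sites was not established. The strings are 31 bases of the GENCODE transcript on mm10 (GRCm38), written 5′ to 3′ on the gene's own strand, with the variable base in capitals at position 16 counted from 1 at the 5′ end.
Tfe3 reference, chrX:7773514-7773544, + strand: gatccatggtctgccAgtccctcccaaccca
Tfe3 variant, A16G: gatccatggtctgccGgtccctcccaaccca
Hdac6 reference, chrX:7931601-7931631, − strand: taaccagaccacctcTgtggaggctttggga
Hdac6 variant, T16C: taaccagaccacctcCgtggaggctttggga
Bcor reference, chrX:12037794-12037824, − strand: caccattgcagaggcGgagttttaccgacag
Bcor variant, G16A: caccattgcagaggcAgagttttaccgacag
Uba1 reference, chrX:20682456-20682486, + strand: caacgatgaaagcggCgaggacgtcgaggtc
Uba1 variant, C16T: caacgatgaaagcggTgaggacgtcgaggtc

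At the Tfe3 base the reference allele made up 2 of 54, 5 of 56, 9 of 82 and 25 of 92 reads at days 18, 22, 29 and 36, against 0 of 48 in MEF2. At the Hdac6 base it made up 4 of 80, 13 of 114, 20 of 93 and 45 of 125 reads, against 1 of 68. At the Bcor base the counts were 6 of 147, 12 of 125, 25 of 95 and 62 of 182, against 0 of 28. At the Uba1 base they were 31 of 481, 101 of 524, 106 of 463 and 149 of 587, against 7 of 328. In each of the 4 sites the reference base was rare in MEF2 and had its highest share at day 36. The 4 genes were picked as high at day 36 and these reads are part of their gene values, so the sites are examples and not separate evidence.

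Of the 14 tested genes from Plp2 to Ftsj1 in order along the chromosome, which include Tfe3 and Hdac6, 0 of 13, 2 of 13, 5 of 13 and 8 of 14 were called higher at days 18, 22, 29 and 36, with median differences of 3.73, 10.3, 17.0 and 22.2 points. Gripap1, Otud5, Pqbp1, Timm17b, Rbm3 and Ebp, in the same stretch, were called on no day over all sites, although Pqbp1 was called at day 29 at a coverage minimum of 10 reads (25.1 points) and Timm17b with 1 site per gene (25.04 points). Otud5, a deubiquitinase gene, had 5.74%, 16.2%, 19.1% and 16.1%, against 2.48% to 3.73% in MEF2. Ebp, a sterol isomerase gene, had 21.1%, 22.2%, 19.96% and 22.99%, against 20.2%. The stretch was set out after its values were seen. Gpkow, which encodes a spliceosome protein, had 17.1%, 21.2%, 30.2% and 36.6%, against 0% of 67 to 91 reads in MEF2. Its differences at days 22 and 29 were 8.07 and 18.5 points with MEF1, and 1 site per gene also ended both calls (adjusted Fisher exact p of 0.0536 and 0.133). At a coverage minimum of 10 reads the day 22 call was lost too, at 17.8 points over 28 sites. Wdr13, a WD-repeat protein gene, had 1.45%, 11.5%, 30.3% and 26.3%, against 1.20% to 2.22%. Ftsj1, which encodes a tRNA methyltransferase, had 4.66%, 9.26%, 13.8% and 24.4%, against 0.513%. Praf2, a gene for a vesicle membrane protein, had 6.95%, 12.6%, 22.1% and 22.8%, against 2.21%, and its call at day 36 was lost in 5 alternatives, at 11.6 points with MEF1 and 14.7 to 19.8 points in the others, while day 29 was called in 3. For Gpkow, Wdr13, Ftsj1 and Praf2 the day 29 and day 36 shares were above MEF2, and at day 18 the Wdr13 share was not.

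Plp2 and Slc35a2, in the same stretch, rested on few sites. Plp2, the gene of a membrane proteolipid, had a single site with 13.4%, 26.6%, 44.1% and 65.7%, against 1 of 36 reads (2.78%) in MEF2; the day 22 difference was 12.3 points with MEF1 and 16.2 points at a coverage minimum of 10 reads. Slc35a2, a UDP-galactose transporter gene, could be tested only at day 36, where 17 of 43 reads (39.5%) were reference, against 0 of 61 in MEF2. With MEF1 its single shared site gave 22.7 points with an adjusted Fisher exact p of 0.297.

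**Figure D4:**
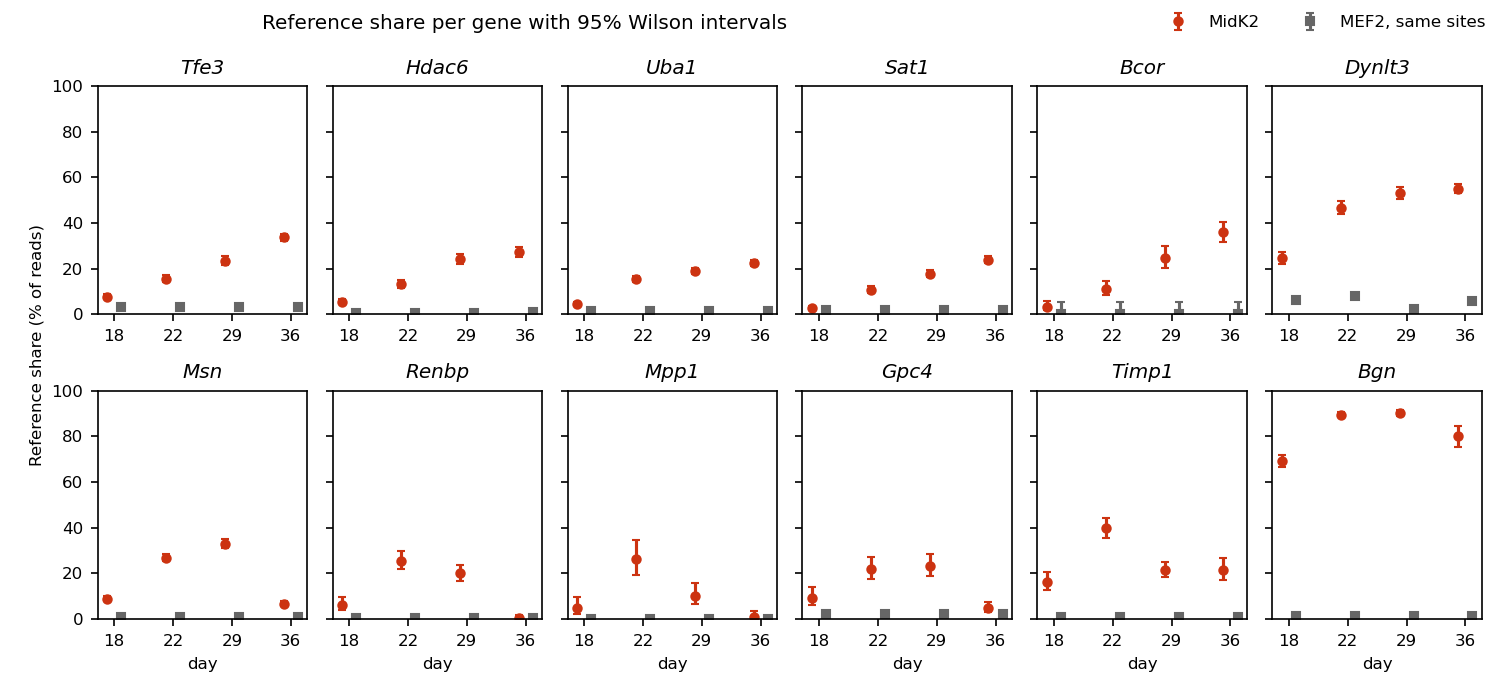
Reference share (% of reads, vertical) with 95% Wilson intervals for 12 called genes at days 18, 22, 29 and 36 (horizontal); red circles are MidK2 libraries and grey squares MEF2 over the same sites. In the upper row the circles are highest at day 36, while Msn, Renbp, Mpp1 and Gpc4 have low values there. For Dynlt3 the median over sites under 80% reference in MEF2 was instead highest at day 29.

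Dynlt3, 1810030O07Rik and Fundc1, also in the first 30 Mb, were called on each of days 22, 29 and 36. Dynlt3 (chrX:9654267-9663003, − strand), a dynein light chain gene, had 24.5%, 46.7%, 53.2% and 55% over 19 to 21 sites, against 6.03%, 8.04%, 2.22% and 5.87% in MEF2. Of its sites, 1, 2, 0 and 1 at the 4 days were at least 80% reference in MEF2. The median over the other sites was 16.7%, 41.7%, 57.4% and 49.8%, highest at day 29. The Dynlt3 difference at day 18, 18.5 points (95% interval 15.7 to 21.4), was just under the 20 points needed, and became 20.1 points when sites were matched by position alone. With 1 site per gene its day 22 difference was 16.3 points, in place of 38.6, and was not called. 1810030O07Rik, an uncharacterised protein-coding gene with 3 to 7 UTR sites, had 28.4%, 54.0%, 58.3% and 54.3%, against 1.19% to 2.38%. Its day 18 call rested on 102 MidK2 reads and was 17.1 points with MEF1. Sites at least 50% variant in MEF1 left 1 site, with 15.3, 12.3 and 12.8 points and adjusted Fisher exact p of 0.374, 0.537 and 0.598 at days 18, 29 and 36, so that those calls were lost. Fundc1, the gene of a receptor for the removal of mitochondria, had 7.94%, 21.6%, 45.4% and 36.6%, against 0% of 54 to 74 reads; at day 22 its difference was 17.3 points with MEF1, and 10.4 points with 1 site per gene (adjusted Fisher exact p of 0.281).

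Farther along, Zdhhc9 (chrX:48171969-48208878, − strand), which encodes a palmitoyltransferase, had 36.3%, 41.0%, 43.6% and 49.8%, against 19.9%, 10.3%, 10% and 15.9% in MEF2. The MEF2 level came from 1 or 2 sites that were at least 80% reference there. With the sites that carried the variant in fewer than 20% of reads in both libraries left out, an alternative added after seeing the data, the differences were 20.4, 33.7, 33.6 and 41.8 points, and Zdhhc9 was also called at day 18, as it was with MEF1 (20.7 points) and with 1 site per gene (28.4 points). Acot9, a mitochondrial acyl-CoA thioesterase gene, had 5.08%, 23.6%, 17.9% and 26.8% over 5 or 6 coding sites, against 0% of 384 to 438 reads. Tceal3, of the Bex and Tceal cluster, had 60%, 81.4%, 56.1% and 45.7% at 1 coding site, against 0 of 29 reads in MEF2 and 4 of 28 (14.3%) in MEF1.

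Matrix and cytoskeleton genes formed another group of calls, which overlaps with that of the first 30 Mb: Timp1, Plp2 and Dynlt3 belong to both. Most of the group was read at much lower coverage than in MEF2, although Plp2 was not. Dynlt3 was read at 85.0% of the MEF2 coverage at day 29. Bgn (chrX:73483602-73495933, + strand) encodes biglycan, a matrix proteoglycan made in quantity by fibroblasts. Its reference share was 69.4% at day 18, 89.5% at day 22, 90.4% at day 29 and 80.4% at day 36, against 1.15% to 1.21% in MEF2. Every one of its 9 to 14 shared sites was above MEF2, and no MidK2 site was under 51.2%. Reads over those sites numbered 1178, 2914, 1963 and 281, which is 3.22%, 7.54%, 5.36% and 0.927% of the MEF2 reads. In bulk RNA, fewer cells of a type and less RNA per cell cannot be told apart.

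Timp1 (chrX:20870166-20874735, + strand), an inhibitor of matrix metalloproteinases, had 16.3%, 39.8%, 21.5% and 21.5%, against 0.982% to 1.01%, at 27.8%, 37.2%, 45.2% and 22.1% of the MEF2 coverage. Its differences at days 29 and 36 were 18.8 and 18.2 points with MEF1 in place of MEF2, and the day 36 difference was 19.5 points at a coverage minimum of 10 reads. Tmsb4x, which encodes the actin-binding peptide thymosin beta-4, had 9.81%, 22.8%, 23.4% and 28.5%, against 0.623% to 0.629%, at 18.6% to 31.5% of the MEF2 coverage. With insertions, deletions and multi-base variants included, Tmsb4x fell to 16.2, 19.99 and 18.5 points at days 22, 29 and 36 and was not called.

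Msn (chrX:96096042-96168552, + strand), the gene of moesin, which links actin to the plasma membrane, had 25 or 26 shared sites. Its share was 8.87% at day 18, 26.8% at day 22, 33.1% at day 29 and 6.67% at day 36, against 1.01% in MEF2. The differences from MEF2 were 7.86, 25.8, 32.1 and 5.66 points, with a 95% interval of 4.64 to 6.83 points at day 36. Flna, the gene of the actin cross-linker filamin A, had the highest MEF2 coverage of the genes never called. It had 6.80%, 24.8%, 22.6% and 7.07%, against 5.79%, 5.57%, 5.16% and 4.79%, and its day 22 difference of 19.3 points passed 20 with a coverage minimum of 50 reads (23.3 points) and with sites kept as strata (22.1 points). The same alternatives took its day 29 difference of 17.5 points to 20.9 and 20.3 points. Both Msn and Flna were far above MEF2 at days 22 and 29 and within 6 points of it at days 18 and 36, apart from Msn at day 18.

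Of the 10 tested genes of a fibroblast matrix and surface list, 1, 3, 4 and 4 were called higher at the 4 days, with medians of 0.615, 8.27, 11.5 and 2.35 points. Over all tested genes the called shares were 1.59%, 9.63%, 9.94% and 10.4% and the medians 1.77, 7.95, 6.24 and 0.605 points, so the list's median was below that of all genes at day 18. Of 5 actin and cytoskeleton genes, 0, 3, 3 and 2 were called, with medians of 7.86, 22.1, 22.8 and 5.66 points. The median coverage of the first list was 77.9%, 74.1%, 73.3% and 103% of MEF2, and that of the second 19.2%, 18.6%, 24.1% and 24.2%. Low coverage did not always go with a high share: Fhl1, a muscle and fibroblast LIM-domain gene read at 6.88% to 10.2% of the MEF2 coverage, had 0.542%, 2.11%, 2.35% and 0%, against 0.554% to 0.651%. With both lists left out, an alternative added after seeing the data, 11 genes were called at day 29.

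Over all tested genes, the difference went with lower coverage at days 22 and 29. Across genes, which are not independent replicates and share one library, Spearman's rho between coverage as a percentage of MEF2 and the difference was −0.140, −0.436, −0.291 and 0.0125 at days 18, 22, 29 and 36. At day 22 the 16 genes under 50% of the MEF2 coverage had a median difference of 19.4 points, with 7 called, against 7.42 points and 11 called among the 171 others. At day 36 the 15 such genes had a median of 2.28 points, with 3 called, against 0.581 points and 17 called among the 177 others. What part coverage plays in the differences was not tested.

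**Figure D5:**
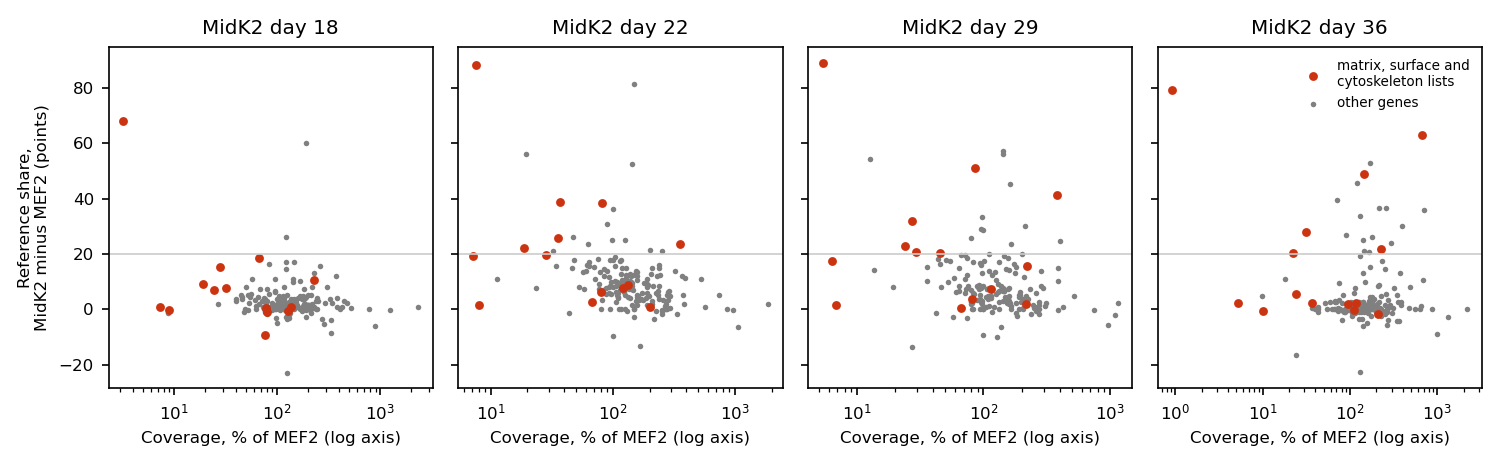
Difference in reference share (percentage points, vertical) against coverage as a percentage of MEF2 (horizontal, log axis), one point per tested gene and one panel per MidK2 day; red points are the matrix, surface and cytoskeleton lists and the grey line marks 20 points. At day 22 points under 50% of the MEF2 coverage lie mostly above the others, while at day 36 most called genes have coverage at or above that of MEF2.

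Renbp, Mpp1 and Gpc4 had high shares at day 22 and shares close to MEF2 at day 36, and are set side by side for that pattern. Renbp (chrX:73922121-73930850, − strand), which encodes a renin-binding sugar epimerase, had 6.29% at day 18, 25.5% at day 22, 20% at day 29 and 0.672% at day 36 over 7 coding sites, against 0.551% in MEF2. The day 36 difference of 0.121 points had a 95% interval of −1.37 to 1.24, and the day 29 difference of 19.4 points was 22.3 points, and called, at a coverage minimum of 50 reads. Mpp1, a palmitoylated membrane scaffold gene, had 4.65%, 26.4%, 10.3% and 1.01%, against 0% of 276 to 486 reads. Gpc4, a cell-surface proteoglycan gene, had 9.30%, 22.0%, 23.2% and 4.68%, against 2.16% to 2.41%, and was called only at day 29, at 20.9 points, or also at day 22 with sites listed in all 5 tables (21.8 points). The day 29 call was lost with 1 site per gene (8.21 points, adjusted Fisher exact p of 0.111), with MEF1 (16.9 points), at coverage minimums of 10 and 50 reads (17.0 and 15.8 points) and with all variant types (19.4 points). These 3 genes had their lowest MidK2 shares at day 36.

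Single coding bases are given below as examples for Renbp and Mpp1, beside Timp1, whose share stayed above MEF2. The reads at these bases are part of the gene values above. The strings are drawn from the same transcript set and written in the same way.
Renbp reference, chrX:73927849-73927879, − strand: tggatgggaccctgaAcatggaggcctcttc
Renbp variant, A16G: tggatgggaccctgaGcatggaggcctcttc
Mpp1 reference, chrX:75113602-75113632, − strand: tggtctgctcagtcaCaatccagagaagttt
Mpp1 variant, C16G: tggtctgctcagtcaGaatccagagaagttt
Timp1 reference, chrX:20874528-20874558, + strand: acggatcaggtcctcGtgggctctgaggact
Timp1 variant, G16A: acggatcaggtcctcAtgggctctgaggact

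At the Renbp base 3 of 53, 24 of 63, 8 of 72 and 0 of 93 reads were reference at days 18, 22, 29 and 36, against 0 of 49 in MEF2. At the Mpp1 base the counts were 3 of 47, 13 of 45, 2 of 32 and 0 of 55, against 0 of 99. At the Timp1 base they were 17 of 102, 54 of 143, 30 of 152 and 14 of 63, against 2 of 383. The reference bases of Renbp and Mpp1 were thus read at days 18 to 29 and in none of 93 and 55 reads at day 36.

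Slc6a8 and Maged2 need their sites read one by one. Slc6a8, the creatine transporter gene, had 25.1%, 26.6%, 29.2% and 17.9%, against 17.8%, 1.69%, 16% and 18.2% in MEF2, where 1 site that was almost all reference entered the pairs at days 18, 29 and 36. With the sites almost all reference in both libraries left out, the differences were 10.3, 24.9, 18.8 and 4.14 points, and day 22 remained the one call. The day 22 call was lost with 1 site per gene, at 16.4 points. Maged2, a melanoma-antigen family gene, had 45.6%, 63.6%, 54.5% and 33.8%, against 38.1%, 7.6%, 0% and 23%, on 1 to 5 sites. With 1 site per gene its day 22 difference was 9.03 points, with an adjusted Fisher exact p of 0.627, in place of 56 points. A different reading came from its coding site at X:150807674, listed on every day. There 1 of 37, 20 of 32, 12 of 22 and 1 of 26 reads were reference at days 18, 22, 29 and 36, against 0 of 173 in MEF2. Over all its shared sites the coverage of Maged2 was 12.7% to 24.9% of that in MEF2. The MEF2 values differ between days because different sites were shared.

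The last of the genes called at day 22 or 29 and not at day 36 rested on thin data. Clcn5, an endosomal chloride transporter gene, had 3.57%, 17.4%, 27.8% and 2.54%, against 0% to 3.97%, on 1 to 8 sites, and its day 29 difference of 25.7 points was 13.1 points at a coverage minimum of 10 reads and was not called. Cxx1b had 47.1%, 75%, 44.4% and 41.7%, against 44.1%, 53.8%, 58.0% and 58.0%, and its day 22 call rested on 56 MidK2 reads and was lost with 1 site per gene (11.7 points) and with MEF1 (16.1 points). Rnf128, a ubiquitin ligase gene, had 0 of 41 and 8 of 22 reference reads at days 18 and 22, against 0 of 42 and 0 of 22 in MEF2. For Cxx1b the groups of values overlapped across the days, with MEF2 above MidK2 at days 29 and 36.

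The only lower call was Tmem29, with 2 coding sites. Its share was 8.73% at day 18, 18.5% at day 22, 21.7% at day 29 and 30.7% at day 36, against 31.7% in MEF2. The day 18 difference was −23.0 points (95% interval −33.3 to −12.6), and it was −16.3 points with MEF1 and −19.4 points at a coverage minimum of 10 reads, where it was not called. Lamp2, a lysosomal membrane protein gene that was never called, was also lower at day 18 with 12.9% against 22.0% over 29 sites, while MEF1 had 17.9% against 21.4%. At days 22, 29 and 36 Lamp2 had 28.0%, 26.1% and 23.9%, against 21.6% to 22.2%.

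Most of the tested genes of a list of genes known to escape X inactivation were read from both alleles in MEF2, and most were not called. Of the escape list, 2 of 10, 2 of 9, 2 of 8 and 2 of 9 tested genes were called, in each case Bgn and 1810030O07Rik, which had low shares in MEF2. The called shares of all tested genes were 1.59%, 9.63%, 9.94% and 10.4%. Ddx3x, an RNA helicase gene, had 49.4%, 52.5%, 59.2% and 59.2%, against 44.5% in MEF2. Utp14a, a gene for ribosomal RNA processing, had 49.5%, 46.1%, 49.1% and 46.9%, against 34.0%. Kdm5c, a histone H3 lysine 4 demethylase gene, had 38.7%, 41.9%, 35.9% and 36.7%, against 41.6% to 42.4%. Pbdc1 had 43.8%, 43.7%, 40% and 39.9%, against 42.3%, and Eif2s3x, a translation initiation factor gene, had 62.9%, 56.7%, 60.6% and 60%, against 54.9%. Over all sites none of these 5 genes reached 20 points. Utp14a was called under some alternatives, at days 22 and 36 with 1 site per gene or a coverage minimum of 50 reads (21.03 and 21.7 points) and at days 18 and 29 without sites that name several genes (24.5 and 27.6 points). 5530601H04Rik, a noncoding RNA gene with 1 site, had 29.6% at day 36, against 52.4%, with an adjusted Fisher exact p of 0.372.

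Xist itself gave little information on the allele. In MEF2 it had 8 sites, of which 7 carried the variant in fewer than 20% of reads, and at the other, X:103474838, 33 of 33 reads showed the variant, as did 23 of 23 in MEF1. In MidK2 it had 5, 2, 3 and 7 sites, and all carried the variant in fewer than 20% of reads. One site could be tested, at day 18, with 91.1% against 94.4%. Rlim, whose ubiquitin ligase product activates Xist, had 25.4%, 24.5%, 21.5% and 23.9%, against 13.2%, 13.2%, 11.2% and 13.2%, over 30 to 32 sites, a difference of 10.2 to 12.2 points on every day. With only sites that had 10% reference in another course, its differences at days 18, 29 and 36 were 20.7, 26.3 and 21.4 points, and it was called.

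Chromatin and transcription genes other than Tfe3, Hdac6 and Bcor had no call among the 17 tested on each day. With those 3 included, 0, 0, 3 and 3 of the 17 were called higher at the 4 days. Over all tested genes the called shares were 1.59%, 9.63%, 9.94% and 10.4%. The medians of the 17 were 0.993, 5.82, 2.93 and 0.665 points, against 1.77, 7.95, 6.24 and 0.605 points over all tested genes. The cohesin genes Smc1a and Stag2 had 2.42% and 0.993% at day 18, 4.99% and 6.46% at day 22, 4.01% and 0.743% at day 29 and 0.069% and 0.611% at day 36, against at most 1.06% in MEF2. Phf8, a histone demethylase gene, had 40.3%, 46.5%, 41.9% and 56.8%, against 39.3% to 43.4%, and its day 36 difference of 17.5 points was not called. Of the pluripotency and germline list only Tfe3 could be tested.

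The housekeeping list of metabolism and translation had 0 of 25, 1 of 25, 0 of 25 and 1 of 24 calls, all of them Acot9. Hprt, a purine salvage gene, had 7.81%, 13.1%, 8% and 0.923% over 10 sites, against 0.361% in MEF2. Rps4x, a ribosomal protein gene, had 1.92%, 4.67%, 4.65% and 3.25%, against 0.715%, on 3118 to 7112 MidK2 reads. Pdha1, a pyruvate dehydrogenase subunit gene, had 1%, 3%, 3.51% and 1.30%, against 1.34%. These abundant genes thus differed from MEF2 by less than the median gene did at days 22 and 29, with the exception of Hprt. The list's called share was below that of all tested genes at days 22, 29 and 36.

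Of the lysosome, proton pump and vesicle genes, 0 of 12, 0 of 11, 1 of 11 and 1 of 12 were called (Clcn5 at day 29 and Praf2 at day 36), near the 9.94% and 10.4% of all tested genes on those days. Atp6ap2, a proton pump accessory gene in the first 30 Mb, had 7.65%, 14.2%, 17.6% and 16.7%, against 1.38% to 1.49%. Atp6ap1, another accessory gene, had 20.7%, 25.9%, 24.0% and 14.5%, against 9.21% to 9.83%. Of the ubiquitin pathway, 0 of 8, 1 of 8, 0 of 6 and 1 of 7 were called (Rnf128 at day 22 and Uba1 at day 36), beside 9.63% and 10.4% of all tested genes. Usp9x, a deubiquitinase gene, stayed just under the call with 11.6%, 18.7%, 19.6% and 19.9%, against 0.737% to 0.857%, a difference of 19.1 points at day 36.

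The Bex, Tceal and Armcx families had 1 of 9, 1 of 7, 1 of 7 and 1 of 9 calls, each of them Tceal3. At days 22, 29 and 36 the called share of all tested genes, 9.63%, 9.94% and 10.4%, was near that of these families. Wbp5 had 10%, 21.4%, 16.4% and 6.5%, against 6.38% in MEF2, and Bex3 had 2.24%, 10.6%, 7.43% and 1.71%, against 0.688%. Armcx2 had 1.83%, 12%, 11.6% and 1.02%, against 0.814% to 1.10%. Wbp5, Bex3 and Armcx2 were above MEF2 by 9.91 to 15 points at day 22 and by at most 1.02 points at day 36.

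Other genes with high MEF2 coverage were never called. Sh3bgrl had 9.19%, 12.8%, 12.2% and 7.55%, against 4.14% to 4.58%, and Maged1 had 4.77%, 16.6%, 16.2% and 1.52%, against 0.866% to 0.871%. Pls3, the gene of an actin-bundling plastin, had 3.60%, 9.26%, 9.86% and 1.68%, against 1.46% to 1.60%. The differences of Sh3bgrl, Maged1 and Pls3 from MEF2 stayed under 20 points on every day. Their shares were larger at days 22 and 29 than at days 18 and 36, but days were not tested against each other.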

How the data were processed

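RNA from the cells was sequenced as paired reads of 76 bases. Per the labels and the series' design text, the authors called variants in CLC Genomics Workbench (Basic Variant Call), and the build is mm10 per the submitters' processing notes. The deposited tables give, per variant, a count of variant reads, the coverage (also a count of reads) and the percent of variant reads. From the values, the MidK2 and MEF2 tables list variants with at least 2 reads, 5% and a coverage of 10, and the MEF1 table with at least 5 reads and 10%, so a site read almost wholly from the reference allele is not listed. MidK2 tables held 3104 to 3871 single-base sites with 20 or more reads and MEF2 held 1981, with a median coverage of 36 to 39 reads. Sites with the variant in fewer than 20% of reads made up 10.5% to 15.1% of MidK2 sites, 10.7% of MEF2 sites and 0.730% of MEF1 sites.

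Sites were matched by position and allele, and gene names were the deposited ones; where a site named more than one, GENCODE M21 exons decided, and sites that stayed ambiguous were left out. Reads were summed per gene, so a read covering several sites was counted at each of them. Fisher's exact test was two-sided, with Benjamini-Hochberg adjustment over the pair; 95% intervals are Wilson intervals for shares and Newcombe intervals for differences. Python 3.11.15, pandas 2.3.3, NumPy 2.4.6, SciPy 1.17.1 and matplotlib 3.10.9 were used, and the test was checked on simulated data. Genes called and tested on at least 3 days with at least 2 sites on each were to be given with their values and the other 7 called genes by name or range; values of those 7 were added after they were seen. With them stand the 8 uncalled genes of highest MEF2 coverage, Xist and members of 10 gene lists. The members and lists were chosen with earlier results of these data known. Alternatives were other coverage minimums and difference thresholds, 1 site per gene, sites as strata, other choices of sites and variant types, and MEF1 in place of MEF2.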

Additional observations from a re-analysis of the deposited data

Results flagged for a closer look

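Variants of more than 1 base, insertions and deletions enter the comparisons above only in the alternative with all variant types. They too had higher median reference shares in MidK2 than in MEF2. MEF1 was not set against MEF2 for these variants, so the difference between fibroblast libraries is not known for them. Over the variants listed in both tables of a pair, the median reference share was 28.2% at day 18, 35.1% at day 22, 33.1% at day 29 and 26.2% at day 36, against 22.7%, 24.3%, 22.7% and 22.7% in MEF2. Of 259, 278, 254 and 275 such variants, 173, 201, 182 and 153 were higher and 76, 71, 67 and 112 lower in MidK2. In every library, MEF2 included, these medians were above the reference share of the median gene from single-base sites.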

How the results depend on the processing

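With a difference of at least 10 points, 16, 66 and 54 genes were called at days 18, 22 and 29, and with at least 30 points 2, 8, 10 and 11 at days 18, 22, 29 and 36. A coverage minimum of 50 reads left 11, 11 and 10 calls at days 22, 29 and 36 and a day 18 median of 2.52 points, and a minimum of 10 reads gave 30 calls at day 29. Leaving out the matrix, surface and cytoskeleton lists, added after seeing the data, left 11 calls at day 29. With MEF1 in place of MEF2 the medians were 0, 5.45 and 4.11 points at days 18, 22 and 29 and reversed to −0.853 points at day 36, and the counts of 3, 13, 14 and 15 calls stayed within 1.5 times; at days 29 and 36 they include 1 lower call each, 1110012L19Rik at −29.5 and −30.7 points on 1 site, which could not be tested against MEF2. Sites with 10% reference in another course gave medians of 3.21, 8.28 and 1.42 points at days 18, 29 and 36, and all variant types a day 18 median of 2.47 points. The causes were not tested. Of the values of named genes under the alternatives, 1947 kept their side of the threshold, 46 newly passed it and 78 no longer passed it. None that was called in the main setting or in the alternative changed direction. The direction of values called in neither was not compared. Leaving out a replicate was not possible with 1 library per day. No paired analysis was possible because each comparison sets 1 library against 1. Between the fibroblast libraries 87.4% of genes differed by less than 5 points, and sites that lost the variant allele are not seen.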
